A study of Mus musculus with 4 samples.

Results

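The integrated stress response genes Atf4, Ddit3, Trib3, Psat1, Psph, Phgdh, Asns, Sesn2 and Ddit4 are described here together with Gtpbp2, 10 of the 47643 Ensembl genes in the count table, in T cells that did or did not express an Il10 reporter. Gtpbp2 was chosen because its difference between the populations was among the largest of this contrast, and the other 9 genes were listed, with results of these data known, because they are textbook genes of the same response. The levels and differences of these 10 genes are therefore a description, and no p-value is given for them. The question was whether other targets of the transcription factor ATF4 moved with Gtpbp2.

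The cells were CD4+ T cells from the spleen. Their donors were Tg4 Nr4a3-Tocky Il10-EGFP mice (IL-10 GFP in the sample labels), whose Tg4 T cell receptor transgene recognises a peptide of myelin basic protein, and which report T cell receptor signalling by a fluorescent Timer protein driven by Nr4a3 and Il10 expression by EGFP. The mice had received 4 mg/kg of the [4Y]-MBP peptide in PBS under the skin, and spleens were taken 24 h later. Both populations were sorted as Nr4a3-Timer+ and both had seen the peptide. They differed in the reporter, Il10-EGFP+ against Il10-EGFP-, with 2 libraries each. No untreated or Timer-negative library was part of the comparison. Mice of both sexes were used and their age is not given in the sources used here. The series text names 2 replicate mice for the groups but does not say that a replicate number stands for the same mouse in both. According to the study's methods another pair of libraries was dropped as an outlier, and it was not analysed here. Libraries were made with QuantSeq FWD, a method that reads the 3′ end of each transcript, so that a count does not grow with transcript length and counts scaled to library size (CPM) can be set side by side between genes.

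The libraries held 644679 to 730330 counts, so that 1 count was worth 1.36 to 1.58 CPM. Il10, which the sort selected on, had 0 counts in both Il10-EGFP- libraries against 29 and 41 in Il10-EGFP+ cells, at least 12.4-fold higher when a floor of 3 counts per library stands in for 0. The T cell list of 10 markers was detected in each library, with summed levels of 3449 to 4343 CPM, and Cd4 had 149 to 209 counts. Markers of other cells were not level between the populations. Of the B cell list, 3 of 8 tested genes were higher in Il10-EGFP+ cells (Ighm, Igkc and H2-Aa), and its summed level was 141.2 and 227.6 CPM in Il10-EGFP- against 527.6 and 564.1 CPM in Il10-EGFP+ libraries, while the defining gene Cd79a had at most 2 counts in any library. Jchain and Iglc2 of the plasma cell list and Lyz2 and S100a8 of the myeloid list were also higher, and Trac was the T cell gene that was, each past the threshold of 0.05 on the p-value of edgeR's quasi-likelihood test after Benjamini-Hochberg adjustment over 9608 genes. The summed level of the plasma cell list was 156.1 to 196.8 CPM in Il10-EGFP- and 173.1 to 209.2 CPM in Il10-EGFP+ libraries, a near-level sum made of opposite parts. Irf4, which T cells also express, was at 188.7 and 150.3 against 134.7 and 83.7 CPM (adjusted p 0.0666 with edgeR), while Jchain was at 0 and 0 against 23.8 and 23.1 CPM and Iglc2 at 1.36 and 1.46 against 42.8 and 43.3 CPM. Ighg1 was at 0 in each library. The myeloid list went from 66.5 and 105.1 CPM to 332.7 and 138.5 CPM, with Cd14 and Adgre1 at 0 in each library. Of its 7 tested genes, 6 had log2 fold changes above 0 and 6 had an unadjusted p under 0.05 with edgeR. No gene of the dendritic cell, CD8 or NK, and erythroid lists passed the test with edgeR, where 3 of their tested genes had an unadjusted p under 0.05 (voom called 1 and DESeq2 0), and the dendritic cell genes Flt3, Xcr1, Clec9a, Siglech and Zbtb46 were at 0 in each library. The part of other cells in the differences below was not tested beyond these values, and in sorted bulk samples a smaller number of cells of a type and less RNA per cell cannot be told apart.

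The integrated stress response is a brake on protein synthesis that cells apply under amino acid shortage, unfolded proteins, viral RNA or mitochondrial trouble. A set of kinases phosphorylates the initiation factor eIF2, most translation slows, and the mRNA of Atf4 is translated better than before, so that the response begins with ATF4 protein and not with Atf4 mRNA. ATF4 then turns on genes for amino acid uptake and synthesis, tRNA charging and, with its partner CHOP, cell death. GTPBP2 is a translational GTPase that works with Pelota in freeing stalled ribosomes, and its loss in mouse neurons is known to raise the integrated stress response. Activated T cells also switch on many ATF4 targets to feed growth.

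The stretches before the start sites of Gtpbp2 and Ddit4 are shown because, of the members with enough counts to be fitted, these 2 stood higher in both Il10-EGFP+ libraries. Trib3 also stood higher in both, with too few counts for a fit, and its promoter is described below. They come from the RefSeq promoter table on GRCm38.p6, cover 250 bases each and are printed 5′ to 3′ on the gene's own strand, chr17:46160782-46161031 on the plus strand for Gtpbp2 and chr10:59951771-59952020 on the minus strand for Ddit4. They hold 57.6% and 70.0% G and C. Start sites are those of the promoter table, while the gene spans given below come from GENCODE and can begin elsewhere. The last bases of the Ddit4 stretch lie inside its GENCODE span.
Gtpbp2: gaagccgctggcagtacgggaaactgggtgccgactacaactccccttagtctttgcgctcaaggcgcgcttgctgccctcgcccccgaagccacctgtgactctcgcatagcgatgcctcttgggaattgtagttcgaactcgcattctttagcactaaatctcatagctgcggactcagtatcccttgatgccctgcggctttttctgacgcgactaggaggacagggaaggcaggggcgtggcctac
Ddit4: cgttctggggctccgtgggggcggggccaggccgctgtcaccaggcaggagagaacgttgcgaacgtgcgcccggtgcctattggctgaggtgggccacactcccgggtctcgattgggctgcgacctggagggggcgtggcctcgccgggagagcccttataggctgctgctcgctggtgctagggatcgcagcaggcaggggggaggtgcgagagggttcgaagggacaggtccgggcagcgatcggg
Neither stretch, nor the 50 bases that follow it, holds the letters TGATGNAA, the C/EBP-ATF composite element through which ATF4 and C/EBP partners are known to act, searched on both strands. Among all RefSeq promoter windows of the same 300 bases, 1304 of 32851 (3.97%) hold them. A match is a run of letters and not a shown site, and a window without a match says nothing of more distant elements.

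Asns and Trib3 were the 2 of the 10 member genes with a match. The match of Asns began 23 bases before the promoter table's start site, on the gene's strand, and lies inside the gene's GENCODE span. Its printed stretch is chr6:7693215-7693242 on the minus strand. The match of Trib3 began 14 bases after the table's start site, on the other strand, and lies outside the gene's GENCODE span, before its start. Its printed stretch is chr2:152344029-152344056 on the plus strand. Of the 41 other ATF4 targets listed, 31 had a promoter entry and 9 of these held a match, 8 of them the form TGATGCAA. Counted by gene, 4.51% of the 27025 genes in the table hold TGATGNAA in a window and 1.03% hold TGATGCAA. The matches are shown for those of the 9 that had counts in at least 3 libraries, each with 10 bases on either side, with the motif in capitals and read on the motif's strand.
Asns: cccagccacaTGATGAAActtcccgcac
Trib3: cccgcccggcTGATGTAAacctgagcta
Slc1a4: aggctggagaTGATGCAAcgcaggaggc
Pycr1: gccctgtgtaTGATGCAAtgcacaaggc
Pck2: tgtaagatacTGATGTAActttgaaggc
Got1: gaggcttgtaTGATGCAAccaatgcaat
Herpud1: gggtgcgggcTGATGCAAcccgccgtgg
Those of the targets lie at chr11:20332700-20332727 (plus strand, Slc1a4), chr11:120643834-120643861 (minus, Pycr1), chr14:55540153-55540180 (minus, Pck2), chr19:43524690-43524717 (plus, Got1) and chr8:94386307-94386334 (minus, Herpud1). The other targets with a match were Chac1, Slc7a11, Vldlr and Fgf21, which had at most 1 count in any library.

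Gtpbp2 (ENSMUSG00000023952, chromosome 17, 46161032 to 46169370 on the plus strand of GRCm38) had 4 and 2 counts in Il10-EGFP- cells, against 27 and 19 in those of Il10-EGFP+ cells. On the scaled CPM scale these were 5.43 and 2.92 against 42.8 and 27.4, or 4.17 ± 1.78 against 35.1 ± 10.9 CPM (SD, n = 2 each). Both Il10-EGFP+ libraries stood above both Il10-EGFP- libraries, and even the lower of them was several times the higher of the others. The log2 fold change was 3.00 with a standard error of 0.59 and a 95% interval of 1.82 to 4.17, and the ratio of the summed counts was 8.23, with an exact interval of 3.51 to 23.6 that covers counting error only. The lower level rests on 6 counts in all. Leaving out 1 library at a time gave log2 fold changes of 2.65 to 3.50. The deposited rlog values, which shrink differences of genes with few counts, were 3.49 and 3.47 against 3.84 and 3.71, a difference of 0.30 on the log2 scale. Gtpbp2 stood higher in the same 2 libraries as the summed B cell list (527.6 and 564.1 CPM) and myeloid list (332.7 and 138.5 CPM), and the part of such cells in its level was not tested. No other annotated gene overlaps an exon of Gtpbp2, and its last 500 transcribed bases share no run of 50 bases with another gene.

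Gtpbp1 encodes the nearest relative of GTPBP2, and the Gtpbp2 share of the counts of the pair gives a measure within each library that does not depend on scaling. The share was 8.51% and 5.88% in Il10-EGFP- cells, with Wilson 95% intervals of 3.36 to 19.9% and 1.63 to 19.1%. In the Il10-EGFP+ libraries it was 34.2% (24.7 to 45.2%) and 29.7% (19.9 to 41.8%). These intervals cover counting error only, and the share contains the Gtpbp2 counts for which the gene was chosen, so that it describes the difference on another scale and does not test it. Gtpbp1 itself had 43 and 32 against 52 and 45 counts, a log2 fold change of 0.48 ± 0.28 (SE) at an adjusted p of 0.433 with edgeR.

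Pelo, which encodes Pelota, the partner of GTPBP2 on the stalled ribosome, had 39 and 36 counts in Il10-EGFP- against 34 and 32 in Il10-EGFP+ cells. Hbs1l, whose product also binds Pelota, had 40 and 43 against 37 and 28 counts. Their log2 fold changes were -0.08 and -0.25, at adjusted p of 0.945 and 0.786 with edgeR, with 95% intervals of -0.68 to 0.52 and -0.84 to 0.35. In the list of 18 ribosome rescue and collision genes 17 were tested and 0 passed in either direction with edgeR (1 at an unadjusted p under 0.05), 0 with limma's voom and 0 of 13 with DESeq2. The list's median log2 fold change was -0.02, against 0.00 over all genes tested. Its most counted gene was Edf1, a sensor of collided ribosomes, with 199 and 229 against 206 and 181 counts and a log2 fold change of -0.04.

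**Figure D1:**
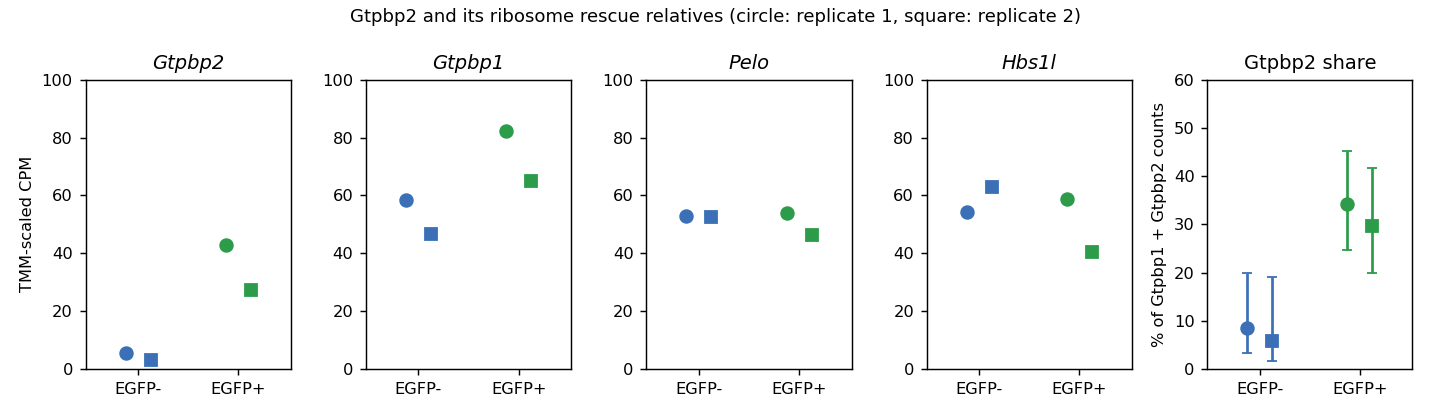
The first 4 panels plot TMM-scaled CPM (vertical axis) of Gtpbp2, Gtpbp1, Pelo and Hbs1l in each library of the Il10-EGFP- (blue) and Il10-EGFP+ (green) populations, and the last panel plots the Gtpbp2 share of Gtpbp1 and Gtpbp2 counts in percent, with Wilson 95% intervals as bars. Gtpbp2 moved from 5.43 and 2.92 to 42.8 and 27.4 CPM while the log2 fold changes of Pelo and Hbs1l were -0.08 and -0.25.

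The plot of Gtpbp2 beside its relatives shows that in Il10-EGFP- cells Gtpbp2 was far below Gtpbp1, at 4.17 against 52.5 CPM, and that in Il10-EGFP+ cells it came closer, at 35.1 against 73.7 CPM.

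Atf4 (chromosome 15, 80255184 to 80257541, plus strand) encodes the transcription factor at the centre of the response. Its counts were 521 and 375 in Il10-EGFP- cells against 371 and 315 in Il10-EGFP+ cells, or 707.2 and 547.1 against 587.9 and 454.4 CPM. The populations overlapped, and the spread within each was about as large as the distance between them. The log2 fold change was -0.27 (SE 0.14, 95% interval -0.56 to 0.02), and leaving out 1 library gave values from -0.46, without Il10-EGFP+ replicate 1, to -0.07, without Il10-EGFP- replicate 1. The counts carry no information on ATF4 protein.

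Ddit3 (chromosome 10, 127290774 to 127296288, plus strand) encodes CHOP, the factor that joins ATF4 in prolonged stress. It had 6 and 10 counts against 19 and 9, or 8.14 and 14.6 against 30.1 and 13.0 CPM. One Il10-EGFP+ library stood above the rest and the other lay within the Il10-EGFP- range. The log2 fold change of 0.91 (SE 0.55, 95% interval -0.20 to 2.01) fell to 0.20 without Il10-EGFP+ replicate 1. Ddit3 shares 68 exonic bases with Mars, a tRNA synthetase gene on the opposite strand with 62 to 110 counts, and whether the counting used strand is not given in the sources used here.

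Trib3 (chromosome 2, 152337422 to 152344032, minus strand) encodes a pseudokinase that ATF4 and CHOP induce and that feeds back on them. Its counts were 1 and 0 against 6 and 2 in the Il10-EGFP+ libraries. Both Il10-EGFP+ libraries were above both others, by as little as 1 count. It missed the minimum of 10 counts for a fitted value, and the ratio of summed counts was 8.59 with an exact counting interval of 1.15 to 381.2.

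Phgdh, Psat1 and Psph encode the successive enzymes of serine synthesis from glycolysis, all known targets of ATF4. Psat1 (chromosome 19, 15904678 to 15947337, minus strand) was the most abundant member, with 539 and 499 counts against 413 and 368, or 731.6 and 728.1 against 654.4 and 530.9 CPM. Here both Il10-EGFP+ libraries lay below both Il10-EGFP- libraries. The log2 fold change was -0.30 (SE 0.14, 95% interval -0.57 to -0.03), from -0.46 without Il10-EGFP+ replicate 1 to -0.16 without Il10-EGFP+ replicate 2.

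Psph (chromosome 5, 129765558 to 129787449, minus strand) had 65 and 68 counts against 77 and 58, or 88.2 and 99.2 against 122.0 and 83.7 CPM, with the Il10-EGFP- libraries between the Il10-EGFP+ libraries. Its log2 fold change was 0.13 (SE 0.23) and turned to -0.16 without Il10-EGFP+ replicate 1. Psph shares 452 exonic bases with Cct6a on the opposite strand, a chaperonin gene with 274 to 429 counts, so that its counts are uncertain if strand was not used. Phgdh (chromosome 3, 98313170 to 98339990, minus strand) had 15 and 8 counts against 14 and 12, which overlapped, and a log2 fold change of 0.28 (SE 0.51) that turned to -0.05 without Il10-EGFP- replicate 2. The end of its transcript shares sequence with 17 other annotated genes, and those of them in the count table had at most 3 counts in a library. Summed over the 3 enzymes, the libraries held 840.2 and 839.0 CPM against 798.6 and 631.9 CPM in Il10-EGFP+ cells. Most of this sum was Psat1 in each library, so that it says little of the other enzymes.

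Asns (chromosome 6, 7675169 to 7693254, minus strand) encodes asparagine synthetase, a classical ATF4 target. Its counts were 0 and 1 in each population. A difference in Asns was not detectable at this depth, where 3 counts correspond to 4.07 to 4.75 CPM.

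Sesn2 and Ddit4 encode inhibitors of mTORC1, the kinase complex that couples nutrients to growth. Sesn2 (chromosome 4, 132492032 to 132510501, minus strand) had 2 and 5 against 2 and 3 counts, with a log2 fold change of -0.38 and an interval of -2.50 to 1.75 that leaves its direction undecided. It turned to 0.45 without Il10-EGFP- replicate 2. Ddit4 (chromosome 10, 59949669 to 59951834, minus strand), which encodes REDD1, had 34 and 39 counts against 67 and 74, or 46.2 and 56.9 against 106.2 and 106.8 CPM. These were 51.5 ± 7.60 against 106.5 ± 0.42 CPM (SD, n = 2 each), and the populations lay well apart. The log2 fold change was 1.05 (SE 0.25, 95% interval 0.54 to 1.56), and between 0.90 and 1.21 with 1 library left out. ATF4 is 1 of several known inducers of Ddit4, with p53, glucocorticoids and low oxygen.

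**Figure D2:**
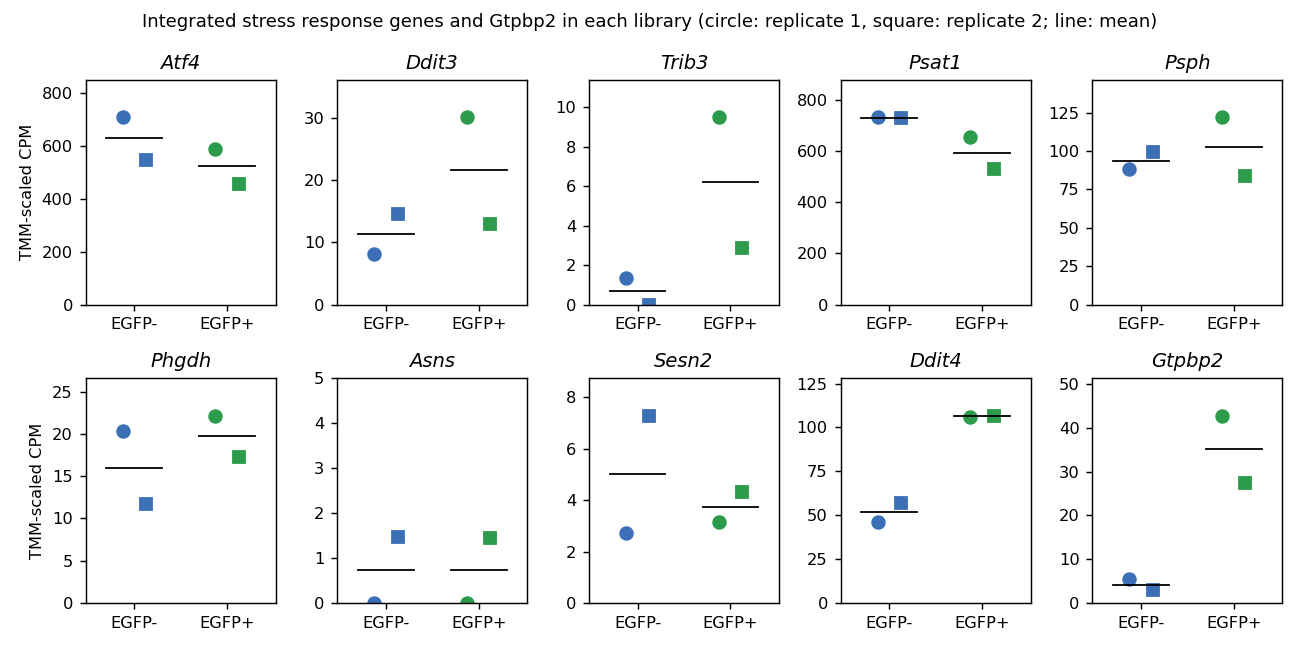
Each panel plots the TMM-scaled CPM (vertical axis, starting at 0, own scale per gene) of 1 of the 10 genes in the 2 Il10-EGFP- (blue) and 2 Il10-EGFP+ (green) libraries, with a line at the population mean. Gtpbp2 and Ddit4 stand higher in both Il10-EGFP+ libraries, Psat1 stands lower, and Trib3, at most 6 counts, and Asns, at most 1, are near the limit of detection.

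Of the 8 members with enough counts to be fitted, Gtpbp2 and Ddit4, or 2, passed an adjusted p of 0.05 with edgeR, beside 4.09% of all 9608 genes tested (2.35% higher and 1.74% lower). DESeq2 gave an adjusted p to 4 of them and called 0 (2.1% of the 5324 genes it gave one), with 2 at an unadjusted p under 0.05. Non-overlapping populations were found in 3 of the 8 (Gtpbp2 and Ddit4 higher, Psat1 lower), where 44.6% of all genes tested did not overlap, 22.3% higher and 22.3% lower. Since Gtpbp2 was picked for this very value, nothing is read from these counts. The median log2 fold change of the 8 was 0.21, against 0.00 over all genes, with 5 values above 0 and 3 below.

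The order of the 10 levels changed between the populations at few places. In Il10-EGFP- cells it ran from Psat1 (729.8 CPM) and Atf4 (627.2 CPM), whose difference was within the spread of Atf4, over Psph (93.7 CPM) and Ddit4 (51.5 CPM) to Phgdh (16.0 CPM) and Ddit3 (11.4 CPM). Sesn2 (5.00 CPM) and Gtpbp2 (4.17 CPM) followed within each other's spread, with Asns and Trib3 below 1 CPM. In Il10-EGFP+ cells Ddit4 (106.5 CPM) had drawn level with Psph (102.8 CPM), and Gtpbp2, at 35.1 CPM, was the fifth, above Ddit3 (21.5 CPM) and Phgdh (19.7 CPM), although the spread of Ddit3 reached it. Atf4 and Psat1 made up 86.8 to 89.3% of the counts of the 10 genes in Il10-EGFP- and 78.7 to 79.3% in Il10-EGFP+ libraries. The summed level of the 10 genes was 1611 and 1469 CPM against 1578 and 1242 CPM, and thus overlapped.

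Other ATF4 targets were then taken from a list of 41 textbook genes, of which 25 had enough counts. In Il10-EGFP+ cells 0 of these were higher and 2 lower at an adjusted p under 0.05 (edgeR, Benjamini-Hochberg), where 2.35% of all genes tested were called higher and 1.74% lower. At the share of all genes, a list of 25 would be expected to hold less than 1 gene called higher, so that the 0 does not set the list apart. At an unadjusted p under 0.05 there were 5, of which Pck2 was higher. The median log2 fold change of the 25 was -0.25 against 0.00 over all genes tested, 17 (68%) were below 0 against 50% of all genes, and for 18 the upper end of the 95% interval lay below a 2-fold rise. Limma's voom called 2 of the list and DESeq2 0 of the 15 to which it gave an adjusted p, with 2 at an unadjusted p under 0.05.

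Amino acid transporters held both calls. Slc3a2, the heavy chain that carries large neutral amino acid and cystine transporters to the membrane, had 158 and 104 counts against 76 and 77, lower in both Il10-EGFP+ libraries. Its log2 fold change was -0.67 ± 0.20 (SE) at an adjusted p of 0.0405 with edgeR, and without Il10-EGFP- replicate 1 it was -0.39 at an adjusted p of 0.537. The call was also lost without either Il10-EGFP+ library, at 0.0891 and 0.205, and on the rlog values, at 0.152. The glutamine transporter gene Slc1a5, the most counted of the list, had 265 and 234 against 161 and 157 counts, again with no overlap. Its log2 fold change was -0.54 ± 0.16 (SE) at an adjusted p of 0.0313 with edgeR, which rose to between 0.0652 and 0.275 when any 1 of the 4 libraries was left out. Both transporters lost their call with DESeq2, at adjusted p of 0.391 and 0.222. Of the 6 tested transporters of 9 listed, 5 had values below 0.

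Of the 12 enzymes of amino acid and one-carbon metabolism, 8 were tested and 0 passed, 6 of them with values below 0. Mthfd2, the mitochondrial folate enzyme that activated T cells raise, had 207 and 136 against 136 and 184 counts and a log2 fold change of 0.00 (95% interval -0.34 to 0.35). Shmt2, the mitochondrial serine hydroxymethyltransferase, had 161 and 139 against 108 and 118 counts, a log2 fold change of -0.30 at an adjusted p of 0.429 with edgeR. The proline synthesis gene Pycr1, which holds the motif shown above, had 16 and 11 against 6 and 6 counts and a log2 fold change of -1.05 at an adjusted p of 0.401. Pck2, the mitochondrial PEP carboxykinase, which also holds a match shown above, was the enzyme on the other side, with 1 and 0 against 5 and 7 counts. Its log2 fold change was 3.38 (95% interval 0.84 to 5.93) at an adjusted p of 0.128 with edgeR. The ratio of its summed counts was 12.9, with an exact counting interval of 1.91 to 550.9. These 4 genes are named for their roles and were chosen after their values were seen.

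Secreted factors and receptors of the response, 7 in the list, were nearly silent, with 1 tested and no untested gene above 3 counts in a library. Across all classes, Fgf21, Adm2, Vldlr, Slc7a11 and Aldh1l2 had 0 counts in each library. Chac1, which breaks down glutathione and is among the steepest ATF4 targets, had 1 count in 1 Il10-EGFP- library. Of the remaining 13 targets 10 were tested, 5 above and 5 below 0, and 0 passed with edgeR.

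**Figure D3:**
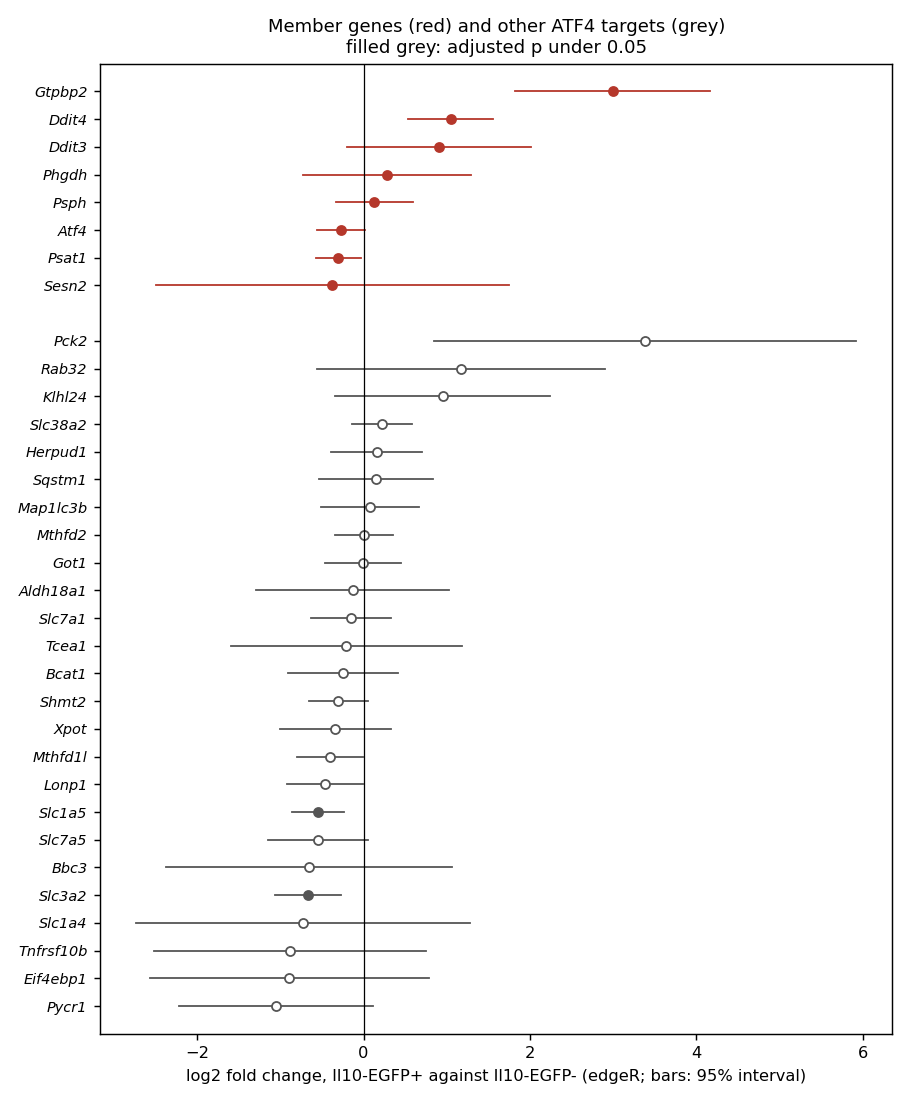
Points give the log2 fold change of Il10-EGFP+ against Il10-EGFP- cells (horizontal axis, edgeR) for the 8 fitted members in red and the 25 tested other ATF4 targets in grey, bars give 95% intervals, and filled grey points passed an adjusted p of 0.05. The members Gtpbp2 at 3.00 and Ddit4 at 1.05 and the target Pck2 at 3.38 have intervals above 0. Most other targets lie at or below 0, and the wide interval of Pck2, 0.84 to 5.93, comes from 1 count in Il10-EGFP- cells.

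In the plot of fold changes 7 targets had intervals that reached a 2-fold rise. The upper ends were 1.03 for Aldh18a1, 1.06 for Bbc3, 1.19 for Tcea1 and 1.28 for Slc1a4. They were 2.24 for Klhl24, 2.90 for Rab32 and 5.93 for Pck2. These targets were named for this count after their values were seen. Klhl24, with 6 and 5 against 10 and 10 counts, and Rab32, with 3 and 3 against 4 and 9, had adjusted p of 0.53 and 0.572 with edgeR.

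The tRNA synthetases, which charge tRNAs with amino acids and which ATF4 is known to raise in large part, were measured with many counts. All 20 cytosolic synthetase genes were tested, 0 were higher and 2 were lower with edgeR, beside 2.35% and 1.74% of all genes tested. Of the 20 log2 fold changes 18 (90%) were below 0, against 50% of all genes, with a median of -0.25. Farsa, a subunit of phenylalanyl-tRNA synthetase, had 414 and 365 against 232 and 249 counts, a log2 fold change of -0.59 ± 0.14 (SE) at an adjusted p of 0.00688 with edgeR. Kars, for lysine, had 198 and 189 against 117 and 118 counts and a log2 fold change of -0.62 ± 0.17 (SE) at an adjusted p of 0.0226. In both genes each Il10-EGFP+ library was below each Il10-EGFP- library. DESeq2 kept the call of Farsa and not that of Kars (adjusted p 0.210). Kars lost it when any 1 library was left out, at 0.0629 to 0.181, and Farsa when any but Il10-EGFP- replicate 2 was, at 0.0506 to 0.0786. Nars, for asparagine and the most counted of the list, had 338 and 405 against 246 and 331 counts and a log2 fold change of -0.27 at an adjusted p of 0.382. For each of the 20 genes the upper end of the 95% interval lay below a 2-fold rise.

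None of the 4 kinases upstream of ATF4 was called between the populations with edgeR. Eif2ak1 (HRI, which senses heme and mitochondrial stress) had 36 and 24 against 27 and 31 counts and Eif2ak4 (GCN2, which senses uncharged tRNA) 19 and 12 against 18 and 11. Eif2ak3 (PERK, of the endoplasmic reticulum) had 7 and 6 against 2 and 7 counts. Eif2ak2 (PKR, which binds double-stranded RNA) had 56 and 50 against 61 and 82 counts, the kinase whose populations did not overlap, with a log2 fold change of 0.53 and an interval of 0.06 to 1.00 at an adjusted p of 0.239 with edgeR. The log2 fold changes of the other kinases were 0.06 (Eif2ak1), 0.02 (Eif2ak4) and -0.43 (Eif2ak3), at adjusted p of 0.978, 0.992 and 0.879. Of the 18 sensor and eIF2 control genes 0 passed with edgeR (3 at an unadjusted p under 0.05), 0 with voom and 0 of 12 with DESeq2, at a median of -0.07. Eif2s2, a subunit of eIF2 and the most counted of them, had 958 and 1051 against 786 and 986 counts and a log2 fold change of -0.09. The kinases act through phosphorylation, which these counts do not measure.

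Among the bZIP partners of ATF4 and other stress transcription factors, 8 of 13 were tested and 0 passed with edgeR (2 at an unadjusted p under 0.05), 0 with voom and 0 of 5 with DESeq2, at a median of 0.14. Junb, the most counted, had 215 and 214 against 166 and 124 counts and a log2 fold change of -0.46 at an adjusted p of 0.121, and it was called lower with the replicate number as a block and without Il10-EGFP+ replicate 1. Atf5, itself regulated by the same response and chosen here after its values were seen, had 5 and 6 against 12 and 13 counts and a log2 fold change of 1.27 (95% interval 0.06 to 2.48) at an adjusted p of 0.289. Atf3, Nupr1 and Cebpd had at most 1 count in any library.

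The other arms of the endoplasmic reticulum stress response, driven by ATF6 and XBP1, had 18 tested genes of 19, of which 1 was higher and 0 were lower with edgeR, while voom called 2 and DESeq2 0 of 14. The gene called with edgeR was Hsp90b1, an endoplasmic reticulum chaperone, with 230 and 253 against 286 and 371 counts and a log2 fold change of 0.54 ± 0.15 (SE) at an adjusted p of 0.0221 with edgeR. The call was lost with DESeq2 (adjusted p 0.142), on the rlog values (0.0789) and without Il10-EGFP- replicate 1 (0.241) or Il10-EGFP+ replicate 2 (0.295). Hspa5, the main chaperone of the compartment and the most counted of the list, had 1146 and 1270 against 782 and 1007 counts, a log2 fold change of -0.34 at an adjusted p of 0.113, and it was called lower with voom, with the replicate number as a block and without Il10-EGFP- replicate 1. The list's median was 0.12.

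Since Ddit4 has inducers besides ATF4, the lists of those were read too. Of the p53 targets 12 of 16 were tested and 0 passed with edgeR (2 at an unadjusted p under 0.05), at a median of -0.24, and Bax, the most counted, had 166 and 131 against 114 and 128 counts and a log2 fold change of -0.19. Of the glucocorticoid and hypoxia targets 13 of 14 were tested and 0 passed (1 at an unadjusted p under 0.05), at a median of 0.16. Hif1a, the most counted, had 194 and 139 against 163 and 187 counts and a log2 fold change of 0.18. Sgk1, a glucocorticoid-induced kinase gene chosen after its values were seen, had 9 and 4 against 14 and 23 counts, a log2 fold change of 1.59 at an adjusted p of 0.0758 with edgeR. Of the genes of mTORC1 control, on which REDD1 and sestrin 2 act, 19 of 23 were tested and 0 passed (1 at an unadjusted p under 0.05), at a median of -0.12, and Rraga, the most counted, had 101 and 78 against 76 and 68 counts and a log2 fold change of -0.21. Neither voom nor DESeq2 called a gene of these 3 lists.

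**Figure D4:**
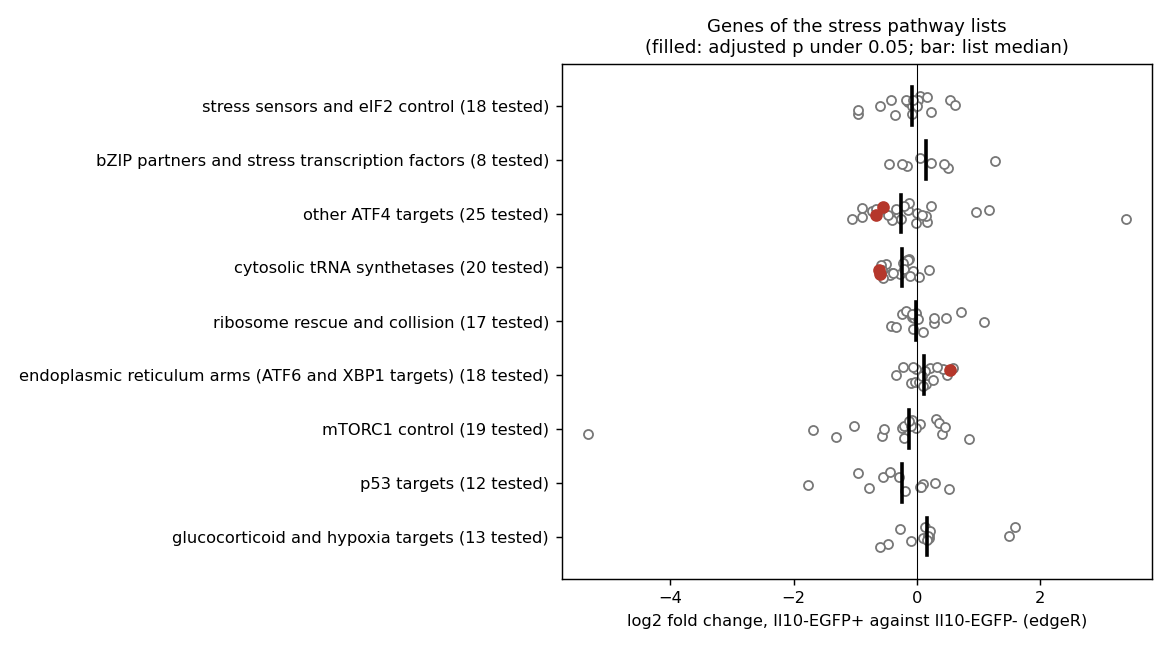
Each point is 1 tested gene of the 9 lists, placed at its log2 fold change of Il10-EGFP+ against Il10-EGFP- cells (horizontal axis, edgeR), the vertical bar marks the list's median, and filled points passed an adjusted p of 0.05. The 5 filled points are Slc3a2, Slc1a5, Farsa and Kars below 0 and Hsp90b1 above 0, and the point farthest to the left is Wdr59 of the mTORC1 list, with 0 counts in both Il10-EGFP+ libraries, whose fitted value is no measured fold and does not change the list's median.

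In the plot of the pathway lists the medians run from -0.25, for the other ATF4 targets and the synthetases, to 0.16, beside 0.00 over all genes tested. Over the 9 lists together, 5 of 150 tested genes (3.33%) were called, 1 higher and 4 lower, near the background of 4.09%, and the median log2 fold change was -0.08. The lists share their libraries with each other and with the 10 member genes, so that they are not independent readings of the cells.

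The genes whose pattern over the 4 libraries was nearest to that of Gtpbp2, by Euclidean distance in gene-centred log2 CPM among 9607 other tested genes, were not ATF4 targets of the list. They were Socs2, a suppressor of cytokine signalling, with 6 and 3 against 28 and 17 counts (distance 0.438), and F2rl2, a protease-activated receptor gene, with 0 and 0 against 7 and 5 counts (0.538). Next came Casp1, the inflammatory caspase, with 0 and 0 against 8 and 9 counts (0.571), the chemokine receptor gene Ccr9, with 7 and 6 against 31 and 26 (0.594), and Blnk, the B cell linker, with 0 and 0 against 6 and 4 (0.689). All 5 had low counts in Il10-EGFP- cells, as Gtpbp2 did. With 4 libraries, this likeness mostly restates the difference between the populations. Of the members Ddit4 was nearest, at a distance of 1.57, followed by Ddit3 at 1.92 and Phgdh at 2.14. By nearness to Gtpbp2 they ranked only 353, 1000 and 1853 among the 9607 other tested genes. Atf4, at 2.69, and Psat1, at 2.75, were farther than Psph at 2.36.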

How the data were processed

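Counts of reads per Ensembl gene were deposited without normalization. The authors made them with the BlueBee QuantSeq pipeline, for which the submitters' processing notes name STAR 2.5.2a, HTSeq 0.6.0 and GRCm38. Unique molecular identifiers were used, but whether the counts were collapsed by them, the strand option and the annotation release are not given in the sources used here. The authors also deposited rlog values (log2 scale, DESeq2) for 9546 genes, of which 9321 were matched to a tested gene by symbol. For the RNA extraction the methods and the sample labels name different kits.

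The 9608 genes whose counts summed to 10 or more were fitted with edgeR 4.0.16 in R 4.3.3 (TMM, glmQLFit and glmQLFTest with default settings), with Benjamini-Hochberg adjustment over all of them and a threshold of 0.05. CPM are TMM-scaled (factors 0.985 to 1.01). Symbols were lacking for 419 genes, and exon overlaps and shared 50-base sequences come from the GENCODE annotation of GRCm38. The members, lists and tests were chosen with earlier results of these data known. The genes named are the 10 members, each list gene past the threshold, the most counted gene of each list, Gtpbp1, Pelo, Hbs1l, the 4 eIF2 kinases, the 5 genes nearest to Gtpbp2 and Il10, and others are marked or serve to describe detection. Alternatives were DESeq2 1.42.0, limma 3.58.1 (voom and rlog values), other filters, scalings and thresholds, the replicate number as a block, and fits without 1 library. No per-sample column was left unused. Intervals of counts and shares cover counting error only.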

Additional observations from a re-analysis of the deposited data

How the results depend on the processing

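Over all genes tested, 393 were called, against 112 with DESeq2, 195 with limma on the rlog values, 177 at an adjusted p under 0.01 and 201 to 264 with 1 library left out. Of the members 2 were called, against 1 with at least 10 counts in every library, 0 with DESeq2 (2 at an unadjusted p under 0.05) and 1 on the rlog values. As above, nothing is read from these counts of members, since Gtpbp2 was picked for its value in this contrast. Of the other ATF4 targets 2 were called, against 0 with DESeq2, 1 on the rlog values, 0 at an adjusted p under 0.01 (5 at an unadjusted p under 0.05) and 0 to 1 with 1 library left out, and in none of these alternatives was a target called higher. Over the 9 lists 5 were called, against 1 with DESeq2, 3 on the rlog values, 1 at an adjusted p under 0.01 and 0 to 4 with 1 library left out. With 1 library left out, a population of 1 library was assumed to vary like the other. Gtpbp2, Ddit4, Atf4 and Psat1 kept their direction in each of these runs, and Psph, Phgdh and Sesn2 did not. On the rlog values the difference of Gtpbp2 was 0.30, of Ddit4 0.37 and of Ddit3 0.09. The promoter share of 3.97% became 0.895% with TGATGCAA, which is a subset of the motif's forms. The labels do not say that a replicate number marks a shared mouse, and same-numbered libraries deviated together by a correlation of 0.03 over 4965 genes, so the numbers were not taken to pair them. With the replicate number as a block, 560 genes were called in all, and 8 of the lists (1 higher, 7 lower), which were the 5 above with Hspa5, Junb and Rars, each lower. The cause of these changes was not tested. Depth limits the result most for Asns, Trib3, Sesn2, the secreted targets and the level of Gtpbp2 in Il10-EGFP- cells.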
